A study of Mus musculus with 10 samples.

Results

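Genes of the unfolded protein response and the chaperones of the endoplasmic reticulum (ER) were followed in mouse liver across 4 groups. The set was a list of 35 genes, and a gene was represented by the transcript cluster listed with its symbol alone, the brightest over all 10 arrays where there were several. Of the 35 genes, 34 were measured, out of 22180 genes with a value; the cluster of Pdia4 carries several symbols and was not used. Ero1lb is listed on the array under its newer symbol, Ero1b. All samples were livers of fasted male mice, collected around 2 weeks after infection with an adeno-associated virus in which the TBG promoter, active in hepatocytes, drives either GFP or FST288, an isoform of the activin-binding protein follistatin. Of the wild-type mice, kept on a high-fat diet, 3 arrays come from GFP livers (called HFD GFP here) and 3 from FST288 livers (HFD FST288). The mice with the label LTKO gave 2 arrays for GFP (LTKO GFP) and 2 for FST288 (LTKO FST288). The labels do not spell out LTKO; in this field the name has been used for livers that lack Irs1, Irs2 and Foxo1. The labels name no diet for LTKO mice, so that genotype and diet cannot be told apart in any LTKO against HFD comparison. The design asks what the follistatin vector did to these genes in each background and whether the effect differed between the backgrounds.

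When unfolded proteins build up in the ER, the membrane sensors IRE1 (encoded by Ern1), ATF6 and PERK (Eif2ak3) are activated. IRE1 splices the mRNA of the transcription factor XBP1, ATF6 is cut to release a transcription factor, and PERK slows translation. XBP1 and ATF6 raise the transcription of chaperones, disulfide isomerases and the machinery of ER-associated degradation, which exports misfolded proteins to the proteasome. Hepatocytes secrete most plasma proteins and carry a large ER, and the response in liver is known to move with feeding, insulin and lipid load. An array value gives the abundance of a transcript; it shows neither the splicing of Xbp1 nor the activation of a sensor.

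Values are deposited log2 RMA values, and a change is a difference of group means on that scale, given ± the standard error of a limma fit over all 10 arrays. Calls were made at an adjusted p under 0.05 (limma, with Benjamini-Hochberg adjustment over 22180 genes). Relative to HFD GFP, Irs1 (-1.77 ± 0.15), Irs2 (-1.21 ± 0.24) and Foxo1 (-1.68 ± 0.13) were lower in LTKO GFP. These are the genes of the usual meaning of LTKO. The labels do not name them, and the comparison does not separate genotype from diet. Fst was higher with the FST288 vector, by 1.08 ± 0.19 in HFD and 1.45 ± 0.23 in LTKO livers. Its values were 6.80, 5.78 and 6.45 on HFD FST288 replicates 1, 2 and 3, against 5.34, 5.25 and 5.22 in HFD GFP. A cluster of the mouse gene need not read the vector's transcript in full. Hepatocyte markers were high on all arrays, with a log2 summed level of 15.10 to 15.36 for 9 of 10 listed genes. Of these 9 markers, 3 were lower and 1 higher in LTKO than in HFD livers with GFP, and 3 were lower with FST288, with median changes of -0.20 and -0.12; the part of this in the members' lower values was not tested. Some arrays stood apart in ways that touch the results. HFD FST288 replicates 2 and 3 carried pancreatic acinar transcripts, and the LTKO GFP arrays differed from each other over the members. LTKO FST288 replicate 2 carried more Kupffer cell and macrophage transcripts.

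The members were lowest in the LTKO FST288 livers. Relative to each gene's mean over all arrays, the median deviation of the 34 members was -0.25 and -0.24 on the LTKO FST288 arrays. It was 0.02, 0.07 and 0.05 on the HFD GFP arrays, -0.02, 0.25 and 0.12 on the HFD FST288 arrays, and -0.15 and 0.11 on the LTKO GFP arrays. Over all genes the same median lay between -0.01 and 0.01 on every array. Both LTKO FST288 arrays were thus the lowest, while the LTKO GFP arrays fell on either side of the HFD GFP arrays. In bulk liver RNA, fewer cells of a type and less RNA per cell cannot be told apart.

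**Figure D1:**
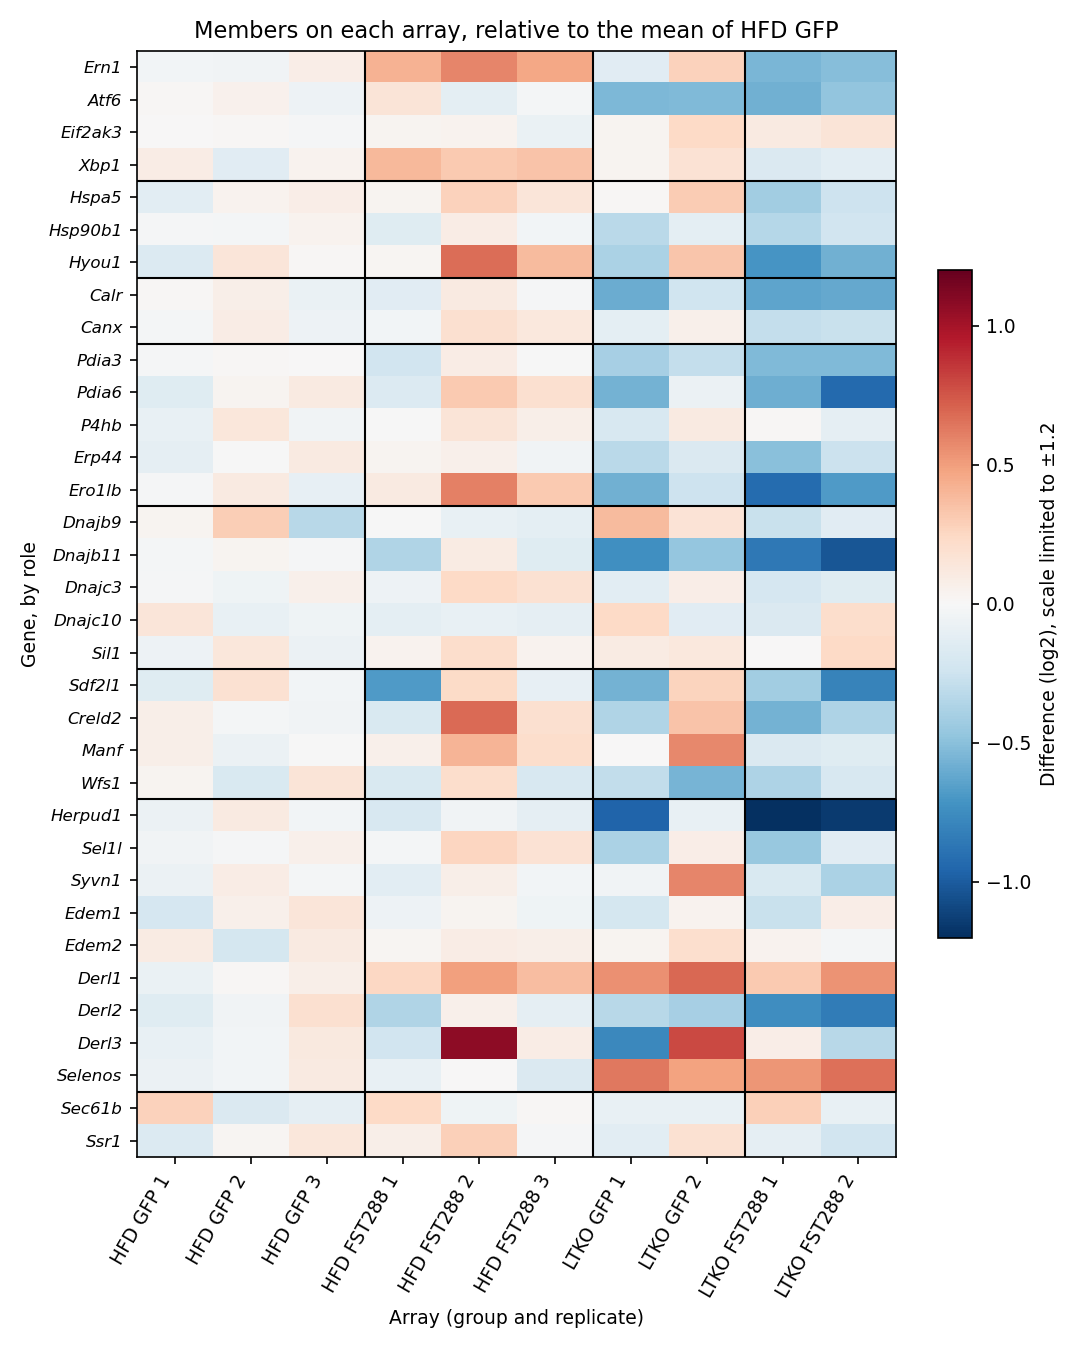
Heat map of the 34 measured genes (rows, grouped by role) on the 10 arrays (columns), as the difference in log2 value from the mean of the HFD GFP arrays; the colour scale stops at ±1.2. Herpud1, Dnajb11, Ero1lb, Derl2 and Pdia6 are among the darkest blue rows in the LTKO FST288 columns, Selenos and Derl1 are red in all LTKO columns, and HFD FST288 replicate 2 and LTKO GFP replicate 2 are redder than their group partners.

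In the HFD livers, FST288 changed 0 of 34 members at the threshold, where 0.996% of the genes tested were called. Ern1, Xbp1, Derl1 and Ero1lb had an unadjusted p under 0.05, all with higher values under FST288; of the 22180 genes tested, 1336 were higher and 1336 lower by that measure. The median change of the members was 0.06, against 0 over all genes, with 20 changes above 0. The FST288 and GFP arrays did not overlap for 3 members, all higher (Ern1, Xbp1 and Derl1), and for 9.3% of all genes in that direction. Leaving out LTKO GFP replicate 1 or 2 brought Ern1 past the threshold. The change itself stayed as it was, and only the shared estimate of spread lost the difference between the LTKO GFP arrays.

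In the LTKO livers, FST288 likewise changed 0 of 34 members at the threshold, where 0.167% of the genes tested were called. Of the members, 13 had an unadjusted p under 0.05, and all 13 were lower with FST288; 1163 of the 22180 genes tested were lower by that measure. The median change was -0.20, against -0.02 over all genes, and 29 of 34 changes were below 0. For 18 members both FST288 arrays lay below both GFP arrays, as they did for 21.1% of all genes. These changes lean on LTKO GFP replicate 2: without it the median change was -0.08, and without replicate 1 it was -0.34. In the fit without replicate 1, where replicate 2 stood alone for LTKO GFP, Herpud1 changed by -1.15 and Ern1 by -0.80. That fit takes out the difference between the LTKO GFP arrays, so its p-values do not measure their spread.

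The difference of the effects, LTKO minus HFD, was called for 1 of 34 members, Ern1, where 0.216% of the genes tested were called. A further 11 members belonged to the 12 with an unadjusted p under 0.05, all with a lower value of the difference, where 1460 of the 22180 genes tested were lower and 1335 higher by that measure: Xbp1, Hspa5, Hyou1, Canx, Pdia6, Ero1lb, Creld2, Manf, Herpud1, Syvn1 and Derl1. The median difference was -0.28, against -0.01 over all genes. This contrast uses the arrays of both preceding comparisons and is no separate evidence beside them.

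**Figure D2:**
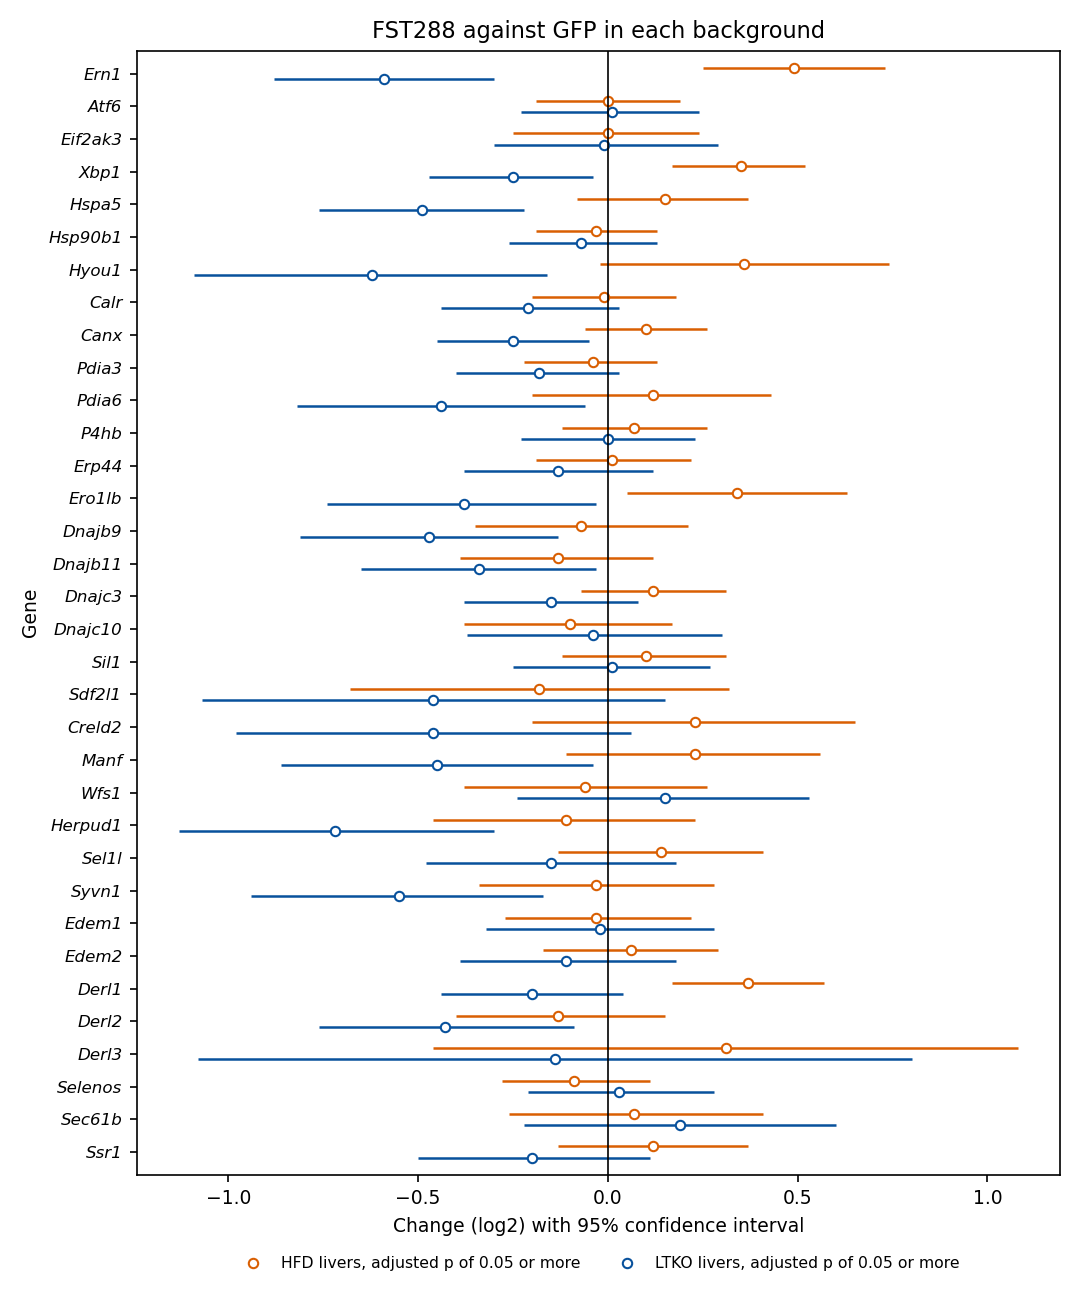
Change with FST288 against GFP (log2, horizontal axis) for each member (vertical axis) in HFD livers (orange, 3 against 3 arrays) and LTKO livers (blue, 2 against 2), with bars for the 95% confidence interval of the limma fit; open circles are changes with an adjusted p of 0.05 or more. The LTKO points lie to the left of the HFD points for 28 of 34 genes, and the intervals of Ern1, Xbp1, Hspa5, Hyou1, Ero1lb and Derl1 do not touch.

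With the GFP vector, 4 members were lower in LTKO than in HFD livers (Atf6, Calr, Pdia3 and Dnajb11), where 6.4% of the genes tested were lower, and 2 were higher (Derl1 and Selenos), where 6.69% were higher. The median change of the members was -0.03. With the FST288 vector, 14 members were lower in LTKO livers, where 5.29% of the genes tested were lower, and 1 was higher (Selenos), where 5.05% were higher. The median change was -0.39, against 0 over all genes, and 23 members did not overlap between the groups in the lower direction, against 18.6% of all genes. The 14 included the 4 that were lower with GFP and 10 that were not called with GFP; that change of call was itself past the test for Ern1 alone. The 2 comparisons share no array, but the second rests on the HFD FST288 arrays with acinar transcripts. Without HFD FST288 replicates 2 and 3 the median change of the members was -0.23, with replicate 1 alone for its group. With the acinar markers as a covariate, 6 members were called, where 1126 of the 22180 genes tested were called. Ern1, Atf6, Ero1lb, Xbp1 and Herpud1 were lower in that fit, and Selenos was higher. Both LTKO FST288 arrays lay below HFD FST288 replicate 1, the array without acinar transcripts, for 23 of 34 members, as they did for 36.3% of all genes. The 14 called lower are among the 23, which their selection partly fixes, since replicate 1 entered that comparison.

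**Figure D3:**
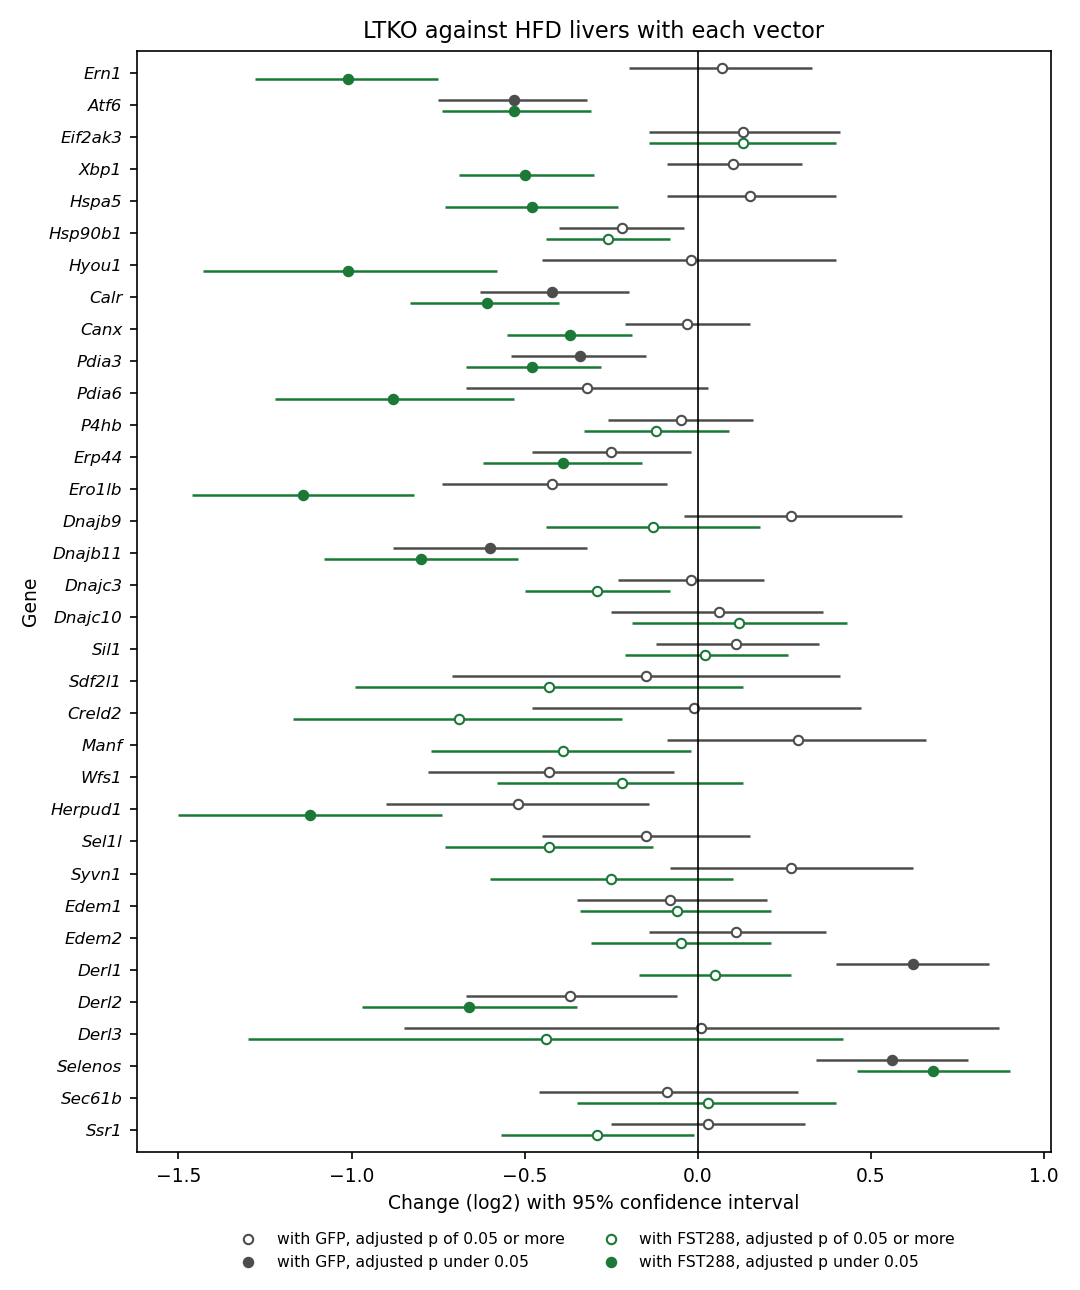
Change in LTKO against HFD livers (log2, horizontal axis) for each member (vertical axis) with GFP (grey, 2 against 3 arrays) and with FST288 (green, 2 against 3 arrays), with bars for the 95% confidence interval of the limma fit; filled circles have an adjusted p under 0.05. Filled green circles left of 0 mark the 14 genes lower with FST288, from -0.37 for Canx to -1.14 for Ero1lb.

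Promoters of these genes are known for the ER stress element, which ATF6 and XBP1 can bind. Promoter windows from RefSeq (GRCm38.p6), 250 bases before to 50 after each start, were matched for 30 of the 35 genes; Atf6, Hyou1, Sil1, Manf and Derl1 had no entry. The element ERSE, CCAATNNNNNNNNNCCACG on either strand, occurred in 10 of the 30 (33.3%) and in 0.137% of the 27025 genes with a window. These 10 were Hspa5, Hsp90b1, Calr, Canx, Pdia6, Ero1lb, Dnajc3, Creld2, Syvn1 and Derl3, with 2 matches in Hsp90b1. ERSE-II, ATTGGNCCACG, occurred in Herpud1 and Dnajb11, against 0.0444% of genes, and the element TGACGTGG, called UPRE, in 0 of the 30 against 0.714% of genes. No member held both ERSE and ERSE-II. Members were listed as genes of this response, so a high share could be foreseen and says nothing about these livers. Shown here, 5′ to 3′ on the strand of the gene, are the windows around the match in 6 of the 7 such genes that were lower in LTKO FST288 than in HFD FST288 livers; capitals mark the match, which in Calr and Ero1lb lies on the other strand.
Hspa5: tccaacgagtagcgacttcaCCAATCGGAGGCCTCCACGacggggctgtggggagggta
Calr: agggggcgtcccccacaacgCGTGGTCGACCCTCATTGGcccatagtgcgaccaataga
Canx: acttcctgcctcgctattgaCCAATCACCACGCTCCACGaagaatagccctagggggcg
Pdia6: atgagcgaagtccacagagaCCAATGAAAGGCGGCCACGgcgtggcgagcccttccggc
Ero1lb: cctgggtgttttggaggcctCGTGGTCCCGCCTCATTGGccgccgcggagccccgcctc
Herpud1: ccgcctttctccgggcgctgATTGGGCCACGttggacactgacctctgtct

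The windows lie at chr2:34772005-34772063 (Hspa5, + strand), chr8:84847055-84847113 (Calr, - strand), chr11:50325780-50325838 (Canx, - strand), chr12:17266471-17266529 (Pdia6, + strand), chr13:12565662-12565720 (Ero1lb, + strand) and chr8:94386357-94386407 (Herpud1, + strand), each upstream of the start of the gene. Counted from the gene's start, the first base of a match lay between -212, in Hsp90b1, and -44, in Syvn1, except in Dnajb11, where the match lay inside the transcribed part. Members with either element had a median change of -0.36 with FST288 in LTKO livers (12 genes, from -0.72 to -0.07) and of 0.11 in HFD livers. Members with a window but neither element had medians of -0.13 and 0 (17 measured genes). With FST288, 7 of the 12 were lower in LTKO than in HFD livers, with a median of -0.54. Of the 17, 5 were lower and 1 was higher, with a median of -0.22. Of the genes tested, 5.29% were lower and 5.05% higher. Among the 7, Ero1lb and Herpud1 alone stayed called with the acinar covariate, and among the 5, Ern1 and Xbp1 alone. Without LTKO GFP replicate 2, the median change with FST288 in LTKO livers was -0.08 over all 34 members. The values for the 12 and the 17 are descriptions of the 2 sets. A match of letters does not show a bound site.

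Among the sensors, Ern1 was the member for which the effect of FST288 differed between the backgrounds. Ern1, the gene of the sensor IRE1, was at 6.64, 6.63 and 6.76 in HFD GFP, 7.09, 7.26 and 7.14 in HFD FST288, 6.54 and 6.95 in LTKO GFP and 6.13 and 6.17 in LTKO FST288 livers. Every HFD FST288 array was above, and every LTKO FST288 array below, all arrays of the other groups. The change with FST288 was 0.49 ± 0.11 in HFD (1.40-fold; limma adjusted p = 0.056) and -0.59 ± 0.13 in LTKO livers (1.51-fold lower; adjusted p = 0.142). Neither passed alone, and their difference of -1.08 ± 0.17 did (adjusted p = 0.0296). Over the fits that left out 1 array, the difference stayed between -1.29 and -0.88, and the call was kept in 3 of 10. It was lost without each HFD GFP array (adjusted p of 0.0776, 0.074 and 0.061 without replicates 1, 2 and 3), without HFD FST288 replicate 2 (0.0994) or 3 (0.0932), without LTKO GFP replicate 2 (0.065) and without LTKO FST288 replicate 2 (0.0542). Without both arrays with acinar transcripts the difference was -1.01 (adjusted p = 0.409). Against HFD FST288, Ern1 was lower in LTKO FST288 by 2.02-fold (-1.01 ± 0.12, adjusted p = 8.94e-05), and this call held in all 10 fits without 1 array.

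Xbp1, the transcription factor downstream of IRE1, had the same order of group means. Its values were 8.43, 8.20 and 8.38 in HFD GFP, 8.73, 8.65 and 8.68 in HFD FST288, 8.37 and 8.51 in LTKO GFP, and 8.16 and 8.21 in LTKO FST288 livers. All HFD FST288 values were above all others, and the LTKO FST288 values overlapped with the lowest HFD GFP array. The change with FST288 was 0.35 ± 0.08 in HFD (limma adjusted p = 0.0677) and -0.25 ± 0.10 in LTKO livers (adjusted p = 0.421), and the difference of -0.60 ± 0.13 missed the threshold (adjusted p = 0.0882). Xbp1 was lower in LTKO FST288 than in HFD FST288 livers by 1.41-fold (-0.50 ± 0.09, adjusted p = 0.00236). Without both HFD FST288 arrays with acinar transcripts it was -0.55 (adjusted p = 0.0513).

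Atf6, the gene of the sensor that is cut to a transcription factor, differed by background and not measurably by vector. It was at 7.77, 7.81 and 7.70 in HFD GFP and 7.91, 7.64 and 7.74 in HFD FST288, against 7.22 and 7.23 in LTKO GFP and 7.18 and 7.29 in LTKO FST288. All LTKO values lay below all HFD values. The change was -0.53 ± 0.10 with either vector (limma adjusted p = 0.00268 with GFP and 0.00322 with FST288), and both calls held in all 10 fits without 1 array. The effect of FST288 had a 95% interval of -0.19 to 0.19 in HFD and -0.23 to 0.24 in LTKO livers. Eif2ak3, the gene of PERK, lay between 4.18 and 4.5 on all arrays and was called in none of the 5 contrasts.

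**Figure D4:**
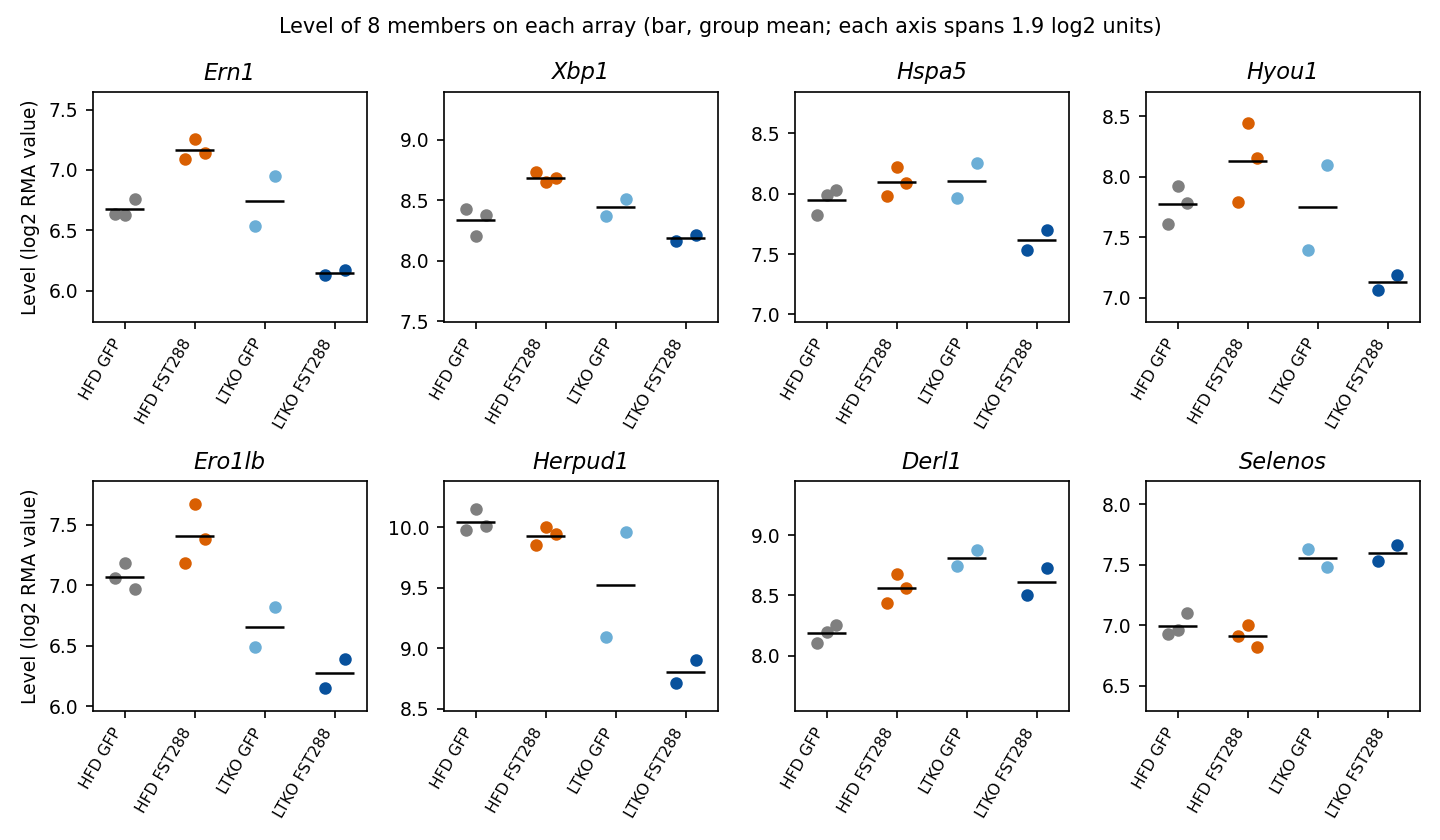
Level (log2 RMA value) of 8 members on each array in the 4 groups; points are arrays, bars are group means, and each panel spans 1.9 log2 units. Ern1 and Xbp1 are highest in HFD FST288, Hspa5, Hyou1, Ero1lb and Herpud1 are lowest in LTKO FST288, and Derl1 and Selenos have their lowest values in HFD groups.

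The luminal chaperones Hspa5 and Hyou1 were lower in LTKO FST288 than in HFD FST288 livers. Hspa5 encodes BiP, the HSP70 chaperone that also holds the sensors inactive, and was at 7.82, 7.99 and 8.03 in HFD GFP, 7.98, 8.22 and 8.09 in HFD FST288, 7.96 and 8.25 in LTKO GFP and 7.53 and 7.70 in LTKO FST288. The LTKO FST288 values lay below those of every other array, and the other groups overlapped. The background change with FST288 was -0.48 ± 0.11 (1.40-fold, limma adjusted p = 0.0148), lost without HFD FST288 replicate 2 (0.0648) or LTKO FST288 replicate 1 (0.126). It was also lost with the acinar covariate (-0.34, 0.311). Without both HFD FST288 arrays with acinar transcripts the change was -0.37. The change with the vector was 0.15 ± 0.10 in HFD and -0.49 ± 0.13 in LTKO livers (adjusted p of 0.638 and 0.197).

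Hyou1, an HSP70-like exchange factor for BiP, was at 7.61, 7.92 and 7.78 in HFD GFP, 7.79, 8.44 and 8.15 in HFD FST288, 7.39 and 8.10 in LTKO GFP and 7.06 and 7.19 in LTKO FST288. The LTKO FST288 values were again below all others, and the LTKO GFP arrays lay on either side of the HFD GFP values. With FST288 it was 2.01-fold lower in LTKO livers (-1.01 ± 0.20, adjusted p = 0.00407 in limma), and -0.67 (adjusted p = 0.197) without both HFD FST288 arrays with acinar transcripts. Hsp90b1, which encodes the HSP90 chaperone GRP94, had a change of -0.26 ± 0.08 in that comparison (adjusted p = 0.072). It was called there without HFD FST288 replicate 1 (-0.32, limma adjusted p = 0.0395). It was also called without either LTKO GFP array, which leaves the change as it was and alters the shared estimate of spread.

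Calr and Canx encode calreticulin and calnexin, the lectin chaperones that hold glycoproteins during folding. Calr was at 10.61, 10.66 and 10.51 in HFD GFP, 10.46, 10.70 and 10.58 in HFD FST288, 10 and 10.35 in LTKO GFP, and 9.96 and 9.98 in LTKO FST288. All LTKO values were below all HFD values. The background change was -0.42 ± 0.10 with GFP (limma adjusted p = 0.0126), lost without LTKO GFP replicate 1 (-0.24, 0.169), and -0.61 ± 0.10 with FST288 (adjusted p = 0.00102). The FST288 call was lost with the acinar covariate (-0.47, 0.0574). Without both HFD FST288 arrays with acinar transcripts the change was -0.49. Canx was called in 1 contrast, lower in LTKO than in HFD livers with FST288 (-0.37 ± 0.08, adjusted p = 0.0103). That call was lost without HFD FST288 replicate 2 (0.05) or LTKO FST288 replicate 1 (0.0514), and with the acinar covariate (-0.23, 0.316). Without both arrays with acinar transcripts the change was -0.25.

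Of the 5 measured disulfide isomerases and oxidases, which form and reshuffle disulfide bonds in the ER lumen, 4 were lower in LTKO FST288 than in HFD FST288 livers and 1 was lower in the LTKO group when GFP was given. Ero1lb, an oxidase that recharges the isomerases and is known for its expression in the pancreas, had the most negative change of the 34 members in LTKO against HFD livers with FST288. It was at 7.06, 7.18 and 6.97 in HFD GFP, 7.18, 7.67 and 7.38 in HFD FST288, 6.49 and 6.82 in LTKO GFP, and 6.15 and 6.39 in LTKO FST288. The LTKO values lay below all HFD values, and the highest was HFD FST288 replicate 2, the array with the most acinar transcripts. The change with FST288 between backgrounds was -1.14 ± 0.15 (2.20-fold lower; limma adjusted p = 0.000188), and -0.90 without the acinar arrays (adjusted p = 0.0176).

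Pdia6, a disulfide isomerase, was at 9.62, 9.80 and 9.87 in HFD GFP, 9.6, 10.08 and 9.96 in HFD FST288, 9.20 and 9.69 in LTKO GFP, and 9.18 and 8.83 in LTKO FST288. Both LTKO FST288 values were below all others, and LTKO GFP replicate 2 lay within the HFD GFP range. The background change with FST288 was -0.88 ± 0.16 (limma adjusted p = 0.00251), and -0.60 without the acinar arrays (adjusted p = 0.165). Pdia3, which folds glycoproteins together with calnexin and calreticulin, was lower in LTKO livers with GFP (-0.34 ± 0.09, adjusted p = 0.0236) and with FST288 (-0.48 ± 0.09, adjusted p = 0.0033). The first of these calls was lost without any one of the HFD GFP arrays (0.0522, 0.0629 and 0.0642 without replicates 1, 2 and 3) or without LTKO GFP replicate 1 (0.161). The second was lost with the acinar covariate (-0.28, 0.163), and the change was -0.29 without the acinar arrays.
Erp44, which retains folding proteins in the secretory pathway, was lower with FST288 (-0.39 ± 0.11, adjusted p = 0.0304). This call was lost without HFD FST288 replicate 1 (0.0793), 2 (0.0945) or 3 (0.0577) and without LTKO FST288 replicate 1 (0.27). It was also lost with the acinar covariate (-0.40, 0.209), and the change was -0.41 without the acinar arrays. P4hb, the gene of the classical protein disulfide isomerase, lay between 10.03 and 10.38 on all arrays and was called in no contrast.

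Of the 5 BiP co-chaperones and exchange factors, Dnajb11 alone was called. Dnajb11, a J-domain partner of BiP, was at 7.74, 7.80 and 7.75 in HFD GFP, 7.40, 7.86 and 7.62 in HFD FST288, 7.03 and 7.30 in LTKO GFP, and 6.91 and 6.74 in LTKO FST288. All LTKO values were below all HFD values. It was 1.52-fold lower in LTKO livers with GFP (-0.60 ± 0.13, limma adjusted p = 0.00722), lost without LTKO GFP replicate 1 (-0.46, 0.0954), and 1.75-fold lower with FST288 (-0.80 ± 0.13, adjusted p = 0.00101). The FST288 call was lost with the acinar covariate (-0.54, 0.0583), and the change was -0.58 without the acinar arrays. Dnajb9, a J-domain protein known as a target of XBP1, had a change of -0.47 ± 0.16 with FST288 in LTKO livers (adjusted p = 0.337). Its HFD GFP values ranged from 7.98 to 8.61. Dnajc3, a J-domain protein that also inhibits PERK, missed the threshold in LTKO against HFD livers with FST288 (-0.29 ± 0.10, adjusted p = 0.0813) and was called there without HFD FST288 replicate 1 (-0.38, 0.0209). Dnajc10, a reductase that works with BiP, and Sil1, a nucleotide exchange factor of BiP, had changes between -0.10 and 0.12 in the 5 contrasts.

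None of Creld2, Manf, Sdf2l1 and Wfs1, 4 further stress-induced ER proteins, was called in any contrast. Creld2, an ER protein with EGF-like repeats, was at 7.41, 7.32 and 7.30 in HFD GFP, 7.16, 8.02 and 7.54 in HFD FST288, 6.98 and 7.69 in LTKO GFP and 6.78 and 6.97 in LTKO FST288. The LTKO FST288 values lay below all others by a narrow margin, and the other groups overlapped. The change between backgrounds with FST288 was -0.69 ± 0.22 (limma adjusted p = 0.064), and -0.28 (adjusted p = 0.714) without the acinar arrays. Creld2 was called there without HFD FST288 replicate 1 (-0.90, 0.0146). It was also called without either LTKO GFP array, which leaves the change as it was and alters the shared estimate of spread. Manf, a secreted ER stress factor, ranged from 3.44 to 4.19, with the highest value on LTKO GFP replicate 2. Sdf2l1, a partner of BiP and J-domain proteins, ranged from 5.33 to 6.40. Wfs1, an ER membrane protein mutated in Wolfram syndrome, ranged from 4.07 to 4.84.

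Of the 9 members of ER-associated degradation, 2 were lower and 1 was higher in LTKO FST288 than in HFD FST288 livers, and 2 were higher in the LTKO group when GFP was given. Herpud1, which organises the degradation complex at the ER membrane and is a sensitive marker of ER stress, was at 9.98, 10.15 and 10.01 in HFD GFP and 9.85, 10 and 9.94 in HFD FST288. It was at 9.09 and 9.96 in LTKO GFP and 8.71 and 8.90 in LTKO FST288. The HFD groups overlapped, the LTKO FST288 values were below all others, and the LTKO GFP arrays stood 0.87 apart. With FST288 it was 2.18-fold lower in LTKO livers (-1.12 ± 0.18, limma adjusted p = 0.000788), and -1.05 (adjusted p = 0.0515) without the acinar arrays. With GFP the change was -0.52 ± 0.18 (limma adjusted p = 0.0725). It was -0.96 without LTKO GFP replicate 2 and -0.09 without replicate 1, each time with 1 array left in that group. The vector's change in LTKO livers was -0.72 ± 0.19 (adjusted p = 0.231), and -0.28 without LTKO GFP replicate 2.

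Derl1 and Selenos, partners in a channel complex that recruits the ATPase p97, were higher in LTKO livers. Derl1 was at 8.11, 8.20 and 8.26 in HFD GFP, 8.44, 8.68 and 8.56 in HFD FST288, 8.74 and 8.88 in LTKO GFP, and 8.50 and 8.73 in LTKO FST288. The HFD GFP values were below those of every other array. The background change was 0.62 ± 0.10 with GFP (1.54-fold; limma adjusted p = 0.00103) and 0.05 ± 0.10 with FST288 (adjusted p = 0.861). The vector's change of 0.37 ± 0.09 in HFD livers did not pass (adjusted p = 0.0826), nor did the difference between the vector's effects (-0.57 ± 0.14, adjusted p = 0.135).
Selenos, a selenoprotein, was at 6.93, 6.96 and 7.10 in HFD GFP, 6.91, 7 and 6.82 in HFD FST288, 7.63 and 7.48 in LTKO GFP, and 7.53 and 7.66 in LTKO FST288. All LTKO values were above all HFD values. The change was 0.56 ± 0.10 with GFP (adjusted p = 0.00232) and 0.68 ± 0.10 with FST288 (adjusted p = 0.00056), and both calls held in all 10 fits without 1 array. Selenos has 2 clusters, and their mean gave 0.39 (adjusted p = 0.0682) and 0.43 (adjusted p = 0.0533).

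Derl2, which takes part in moving misfolded proteins out of the ER, was lower in LTKO than in HFD livers with FST288 (-0.66 ± 0.14, limma adjusted p = 0.00792). The call was lost without LTKO FST288 replicate 2 (-0.62, 0.0668) and with the mean of its 2 clusters (-0.41, 0.0907). It was also lost with the acinar covariate (-0.42, 0.264), and the change was -0.44 without the acinar arrays. Syvn1, the ubiquitin ligase of the pathway, had a change of -0.55 ± 0.18 with FST288 in LTKO livers (adjusted p = 0.308), where LTKO GFP replicate 2 stood at 6.20 and replicate 1 at 5.57. In LTKO against HFD livers with GFP the Syvn1 change was 0.27 ± 0.16, and 0.59 when replicate 2 stood alone for LTKO GFP. Sel1l, the adaptor of that ligase, had a change of -0.43 ± 0.14 between backgrounds with FST288 (adjusted p = 0.0713). Without LTKO FST288 replicate 2 the Sel1l change was -0.59, with replicate 1 alone for its group. Sel1l was called without either LTKO GFP array, which leaves the change as it was and alters the shared estimate of spread. Derl3 had the widest spread, from 2.57 to 4.41, with the highest values on HFD FST288 replicate 2 and LTKO GFP replicate 2. Edem1 and Edem2, which mark misfolded glycoproteins for degradation, had changes between -0.16 and 0.11 in the 5 contrasts.

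The members of the translocation machinery were called in no contrast. Ssr1, a subunit of the translocon-associated complex, ranged from 6.97 to 7.49, and Sec61b, a subunit of the channel, from 2.48 to 2.94, under the median level of the genes tested. The 2 clusters of Ssr1 disagree: the mean of both gave -0.51 in LTKO against HFD livers with GFP (limma adjusted p = 0.0106), and the brighter cluster alone gave 0.03 ± 0.13.

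Further ER genes were set beside the members. Of 135 further genes of the secretory pathway, 127 were measured. In HFD livers, 0 of the 127 were lower with FST288, against 0.419% of the genes tested, and 3 were higher, against 0.577%. These were Fkbp11, a prolyl isomerase (0.73 ± 0.13, limma adjusted p = 0.0186), Qsox1, a sulfhydryl oxidase, and Ssr2, of the translocon-associated complex. No such gene was called in LTKO livers or in the difference of the effects. In HFD livers the FST288 arrays lay above all GFP arrays for 34 of the 127 (26.8%, against 9.3% of all genes). At an unadjusted p under 0.05, 25 were higher and 3 lower there, against 1336 and 1336 of all 22180 genes. By that measure 4 were higher and 7 lower in LTKO livers, against 1050 and 1163 of all genes. By the same measure 3 were higher and 22 lower in the difference, against 1335 and 1460 of all genes. Of Fkbp11, Qsox1 and Ssr2, none was called in HFD livers with the acinar covariate or without the acinar arrays. Fkbp11 was at 0.48 and 0.51 there, Qsox1 at 0.33 in both, and Ssr2 at 0.30 and 0.29. These fits have an added term or fewer arrays.

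In LTKO against HFD livers with GFP, 14 of the 127 were higher (11%, against 6.69% of the genes tested) and 18 lower (14.2%, against 6.4%). With FST288, 2 were higher (1.57%, against 5.05%) and 21 lower (16.5%, against 5.29%). The 21 included 11 of the 31 genes of translocation, signal peptidase and oligosaccharyltransferase and 2 of the 25 further folding enzymes. Uggt1, the folding sensor of the calnexin cycle, had a change of -0.75 (limma adjusted p = 0.000761), and Stt3a, a catalytic subunit of oligosaccharyltransferase, one of -0.61 (adjusted p = 0.000469). Without the acinar arrays these changes were -0.73 and -0.57, with replicate 1 alone for HFD FST288. Of the transducers, Map3k5, a kinase downstream of IRE1, was lower in LTKO than in HFD livers with FST288 (-0.89, limma adjusted p = 8.93e-05). With GFP its values were 6.25 and 6.56 in LTKO livers, also below the 6.93, 6.89 and 6.94 in HFD livers. Cebpb, of the same list, was lower in LTKO livers with GFP (-0.80, limma adjusted p = 0.000243) and with FST288 (-0.69, adjusted p = 0.000853). Atf4, the transcription factor whose translation rises when PERK is active, was higher in LTKO than in HFD livers with GFP (0.72, adjusted p = 0.0164). Of the 23 measured genes of that list, 2 were higher and 2 lower with GFP, and 0 higher and 2 lower with FST288.

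Array to array, the members moved together inside 2 groups. HFD FST288 replicate 2 exceeded replicate 1 in 30 of 34 members, with a median difference of 0.24 and the widest in Derl3, at 1.30. LTKO GFP replicate 2 exceeded replicate 1 in 29 of 34 members, again with a median difference of 0.24, and 7 members differed by more than 0.5. Over all genes the median difference was 0 in both pairs, with 49.1% and 50.5% of genes higher. Of the 127 further ER genes, 78 were higher on replicate 2 in the HFD FST288 pair and 69 in the LTKO GFP pair. The median SD of the members in LTKO GFP was 0.19, against 0.12 over all genes there. The LTKO FST288 arrays differed by a median of 0.05 over the members.

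Acinar cells, secretory cells of the pancreas that are rich in ER, are marked by 20 listed genes, of which 17 were measured. In the HFD FST288 group their median level was 2.38, 7.19 and 5.90 in the order of the replicates, and it lay between 2.17 and 2.54 on all arrays of the remaining groups. Their log2 summed level ranged from 7.04 to 12.08 in HFD FST288, 6.88 to 7.14 in HFD GFP, 6.78 to 6.90 in LTKO GFP and 6.87 to 6.90 in LTKO FST288; RMA values have no true 0. Without the 2 arrays with acinar transcripts, the median change of the members with FST288 was -0.03 in HFD livers, and the difference of the effects had a median of -0.12. On LTKO GFP replicate 2, where the members were high as well, the acinar markers had a median of 2.25.

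Kupffer cell and macrophage markers (8 of 8 measured) had a median of 7.36 on LTKO FST288 replicate 2, against 5.24 to 5.86 on the other 9 arrays. Their log2 summed level was 9.28 and 10.45 in LTKO FST288, 9.02 to 9.16 in LTKO GFP, 8.58 to 9.16 in HFD GFP and 8.63 to 8.87 in HFD FST288. Of these markers, 6 were called higher in LTKO than in HFD livers with FST288. Without LTKO FST288 replicate 2, 15 members were called in that comparison, 14 of them shared with the fit on all arrays. Plasma cells, which like acinar cells carry much ER, had a summed marker level of 6.78 to 7.66 (7 of 8 measured), highest on LTKO FST288 replicate 2, and their part in the results was not tested.

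**Figure D5:**
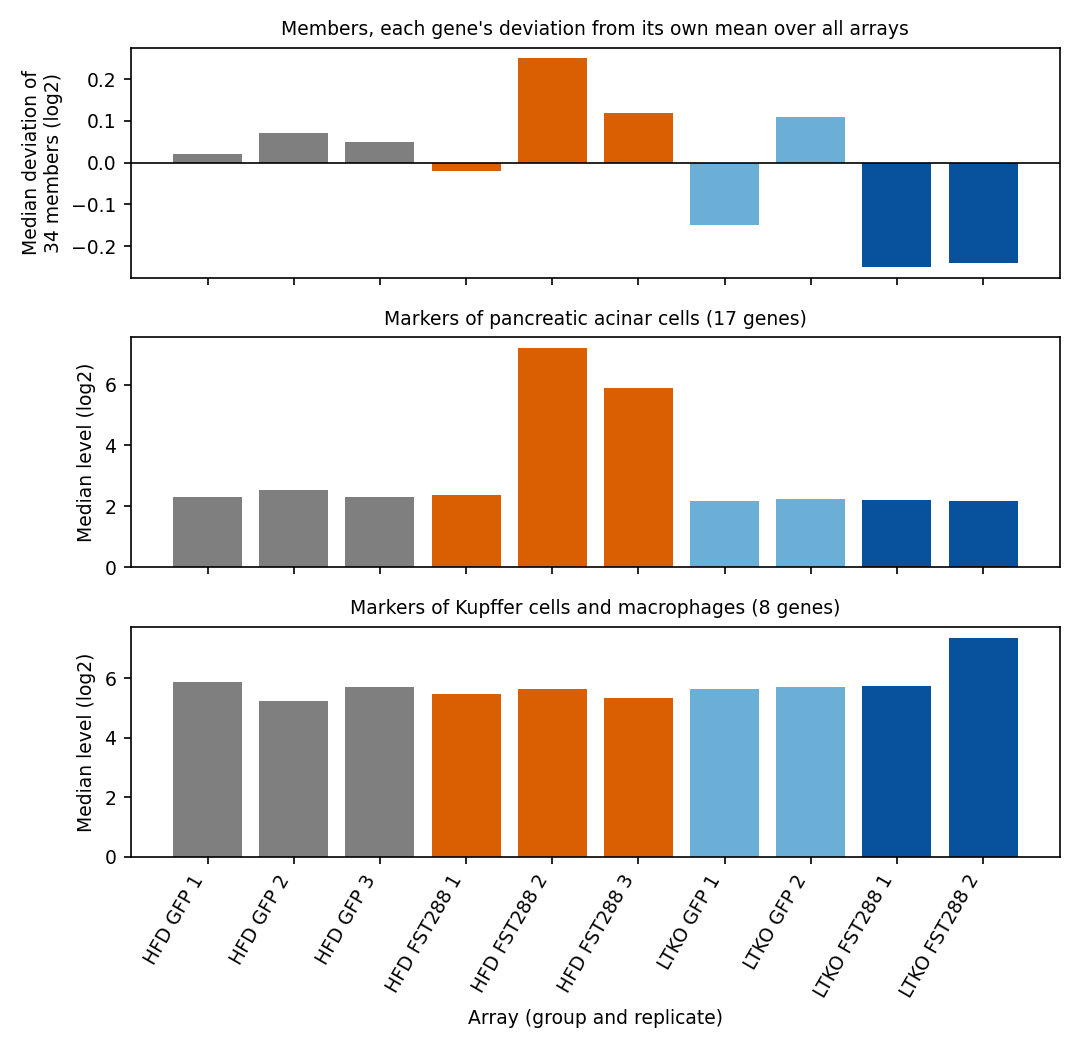
For each array (horizontal axis), the median deviation of the 34 members from their own means (top, log2), and the median log2 level of the markers of pancreatic acinar cells (middle, 17 genes) and of Kupffer cells and macrophages (bottom, 8 genes); bars start at 0 and colours mark the groups. Acinar markers are high on HFD FST288 replicates 2 and 3, where the members are highest in their group, and low on LTKO GFP replicate 2, where the members are at 0.11 against -0.15 on its partner.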

How the data were processed

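Mouse liver RNA was measured on 10 Affymetrix whole-transcript arrays. The authors deposited log2 values made by RMA in Affymetrix Expression Console (per the submitters' processing notes; the version is not given in the sources used here), which corrects background, equalises arrays and summarises probes; log base is read from that method and the range, 0.64 to 13.21. Of 41345 clusters, 23521 had 1 symbol in the platform annotation, giving 22180 genes by the brightest cluster; 1814 with several symbols and 16010 unlisted were left out. The fit used limma 3.58.1 in R 4.3.3 with 1 mean per group, all 10 arrays and eBayes with an intensity trend; tests were two-sided and adjusted over 22180 genes within each of 5 contrasts. It was tested on simulated data. The members and lists were chosen with earlier results of these data known. All members are named; other ER genes were named from those called, at most the 6 with the smallest p per contrast, and Atf4, named after its values were seen. Arrays give no counts, so their number limits precision. No label states outright that each array is another animal, and p-values then cover only the spread among these arrays, which may be technical. Marker lists for 11 cell types were used; those of stellate, sinusoidal endothelial, lymphoid, neutrophil, islet, adipose and bile duct cells had at most 3 genes called in a contrast. In all, 22 alternatives were run. Promoter windows were searched on both strands for exact letters.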

Additional observations from a re-analysis of the deposited data

Results flagged for a closer look

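The effect of FST288 on Ern1, the gene of the ER stress sensor IRE1, differed between LTKO and HFD livers by -1.08 ± 0.17 on the log2 scale (limma, adjusted p = 0.0296), in a test of the difference itself. The call was kept in 3 of 10 fits without 1 array, and it was lost with the acinar covariate (-0.99, adjusted p = 0.217) and without HFD FST288 replicates 2 and 3 (-1.01, adjusted p = 0.409). All 3 HFD FST288 arrays were above all 3 HFD GFP arrays, and both LTKO FST288 arrays were below both LTKO GFP arrays. Groups of 2 or 3 arrays are too small for a search for single outlying values.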

How the results depend on the processing

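Under the 22 alternatives, 1 of 4031 gene values changed sign with a call on a side: Ssr1 in LTKO against HFD livers with GFP, at -0.51 with the mean of its clusters. Another 157 changed sign with no call on either side. The count of members called with FST288 in HFD livers was 0 to 1 over the fits without 1 array. It was 3 with only the compared groups, 2 with array weights, 3 among genes above the median level and 3 at an adjusted p under 0.10. In LTKO livers it was 0 to 2 without 1 array. For the difference of the effects it was 0 to 2 without 1 array, 0 without an intensity trend, 0 with all clusters tested, 2 at an adjusted p under 0.10, 0 with the acinar covariate and 0 without HFD FST288 replicates 2 and 3. With GFP, 4 to 8 members differed between backgrounds without 1 array. With FST288 it was 12 to 18, 6 with the acinar covariate and 4 without HFD FST288 replicates 2 and 3. The fit without both those arrays rests on 1 HFD FST288 array, which is assumed to vary like the other groups. A fit without 1 LTKO array likewise leaves 1 array in its group. Same-numbered arrays deviated from their group means with correlations of -0.07 to 0.05 over all genes. In groups of 2 the deviations mirror each other. These correlations cannot exclude a shared source of same-numbered arrays, on which the labels are silent. With a replicate block the counts were 0, 0, 1, 8 and 16 in the order of the comparisons, with 183, 25, 37, 2475 and 1856 genes called in all. Over all genes, calls with FST288 in HFD livers numbered 221, but 57 with all clusters tested, 411 with only the compared groups, 101 without an intensity trend, 405 at an adjusted p under 0.10, 41 with the acinar covariate, 6 without its arrays and 80 to 307 without 1 array. In LTKO livers they numbered 37, but 7, 0, 16, 58, 23, 16 and 21 to 237 in the same order, and 22 with array weights. For the difference of the effects they numbered 48, but 2 with all clusters tested, 3 without an intensity trend, 155 at an adjusted p under 0.10, 9 with the covariate, 1 without its arrays and 11 to 266 without 1 array; a fit of only the compared groups has no meaning there. With GFP they numbered 2902 and 1870 to 3037 without 1 array. With FST288 they numbered 2293, but 1126 with the covariate and 939 without its arrays. The causes were not tested. Signal over background limits Sec61b, Derl3 and Manf.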

Other observations

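ERSE or ERSE-II occurred in the window of 37 further genes, of which 26 were measured. Of these, 12 had a mean level under the median of the genes tested, so that a median change over the set would say little. In LTKO against HFD livers with FST288, 1 of the 26 was lower and 1 higher, where 5.29% of the genes tested were lower and 5.05% higher. The lower gene was Acacb, an acetyl-CoA carboxylase of fatty acid metabolism (-2.22 ± 0.23, limma adjusted p = 1.99e-05), and the higher one was Acnat2, an acyl-CoA acyltransferase (2.90 ± 0.27, adjusted p = 9.08e-06). Both were called in the same direction with GFP. Nucb1, a calcium-binding protein, had a change of 0.02 ± 0.12 between backgrounds with FST288, and Alg12, a mannosyltransferase of the ER, one of -0.33 ± 0.15 (adjusted p = 0.205).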
